A study of Chlamydomonas reinhardtii with 18 samples.

Results

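Basal bodies are the centrioles from which Chlamydomonas reinhardtii, a single-celled green alga with a pair of flagella, grows its flagella. The genes described here are those whose symbol starts with FBB, POC, BUG, BLD, VFL or SFA followed by a number: 41 of the 17693 genes measured, made up of 12 FBB, 19 POC, 2 BUG, 4 BLD, 3 VFL and 1 SFA gene. They were chosen by name alone. RNA was sequenced from 6 groups of 3 biological replicates. The reference genotype (WT) is the strain CC-4532. In tpt10b, which carries the same strain label, the triose phosphate translocator gene CreTPT10 is knocked out. The labels name 1 mutant allele, so an effect of the lost gene and of anything else particular to that line cannot be told apart. All cultures grew to mid-log phase in TAP, an acetate medium, under low light (about 30 µmol photons per m2 and s). Both genotypes were sampled there (0 h) and after 24 h and 48 h of complete darkness.

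A basal body is a short cylinder of microtubule triplets that templates the axoneme, the motile core of the flagellum. It is built on a cartwheel that sets its radial symmetry, is anchored by striated fibers, and carries at its distal end a transition zone that gates entry of proteins into the flagellum. In dividing cells the flagella are resorbed and the same cylinders act near the spindle poles as centrioles, so these genes serve both the flagellum and the cell cycle. The family names record how the genes were found: FBB genes by comparing the genomes of organisms with and without flagella, POC genes in the proteome of isolated centrioles, BUG genes as basal body proteins whose genes are induced when flagella regrow, and BLD and VFL genes from mutants that are bald or have a variable number of flagella. SFA1 encodes striated fiber assemblin, a protein of striated fibers at the basal bodies. No sequence of these genes was in the files used here, so none is shown.

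The deposited values are TPM, each gene's length-scaled share of a library's reads, so they can be compared between genes. Reads recovered from them numbered 59603478 to 87965038 per library. The locus that background knowledge assigns to CreTPT10, Cre08.g379350, stood at 32.8 to 85.4 TPM in the 9 WT libraries and at 1.28 to 8.28 TPM in the 9 tpt10b libraries. Libraries of tpt10b at 24 h had reads on 15490 to 16231 genes, against 16316 to 16901 in the other groups, and correlations within groups were lowest in WT at 48 h (0.963 to 0.992) and tpt10b at 24 h (0.975 to 0.981). Because TPM is a share, each difference below is given as deposited and, where it matters, after median-of-ratios rescaling, which aligns the typical gene between libraries. That rescaling moved the median of all genes by -0.43 on the log2 scale for tpt10b against WT at 0 h, by 0.26 at 24 h and by -0.11 at 48 h. It moved the 24 h change by -0.21 in WT and by 0.47 in tpt10b, and the change from 24 h to 48 h by 0.12 and -0.25.

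Levels differed widely among the 41 genes. Their summed level in WT was 3147 ± 230.5 TPM (SD, n = 3) before darkness, 1703 ± 98.9 after 24 h and 2255 ± 123 after 48 h. In tpt10b it was 3513 ± 132, 1607 ± 93.4 and 2385 ± 59.1 TPM. Most of that sum lay in a few genes: POC14 (Cre12.g559250) averaged 1244 TPM and POC8 (Cre06.g257500) 866 TPM in WT at 0 h, followed by FBB18, POC7, POC13 and FBB6L1. The median gene stood at 4.83 TPM there, and 21 of the 41 were under 5 TPM. Low genes included structural parts of the cylinder itself, such as BLD10 (Cre10.g418250), the Cep135 protein of the cartwheel, at 1.13, 0.873 and 1.62 TPM, and VFL1 (Cre08.g372900), needed for the position and number of flagella, at 1.30, 1.07 and 1.19 TPM. POC18 (Cre02.g074000) averaged 0.177 to 0.889 TPM over the 6 groups and was left untested, because it missed the minimum of 1 TPM in at least 3 libraries. The other 40 genes were tested among 14731 genes with limma on log2(TPM + 1), where a gene is called at a Benjamini-Hochberg adjusted p under 0.05. Differences below are on that log2 scale, ± SE, and understate the change of low genes.

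**Figure D1:**
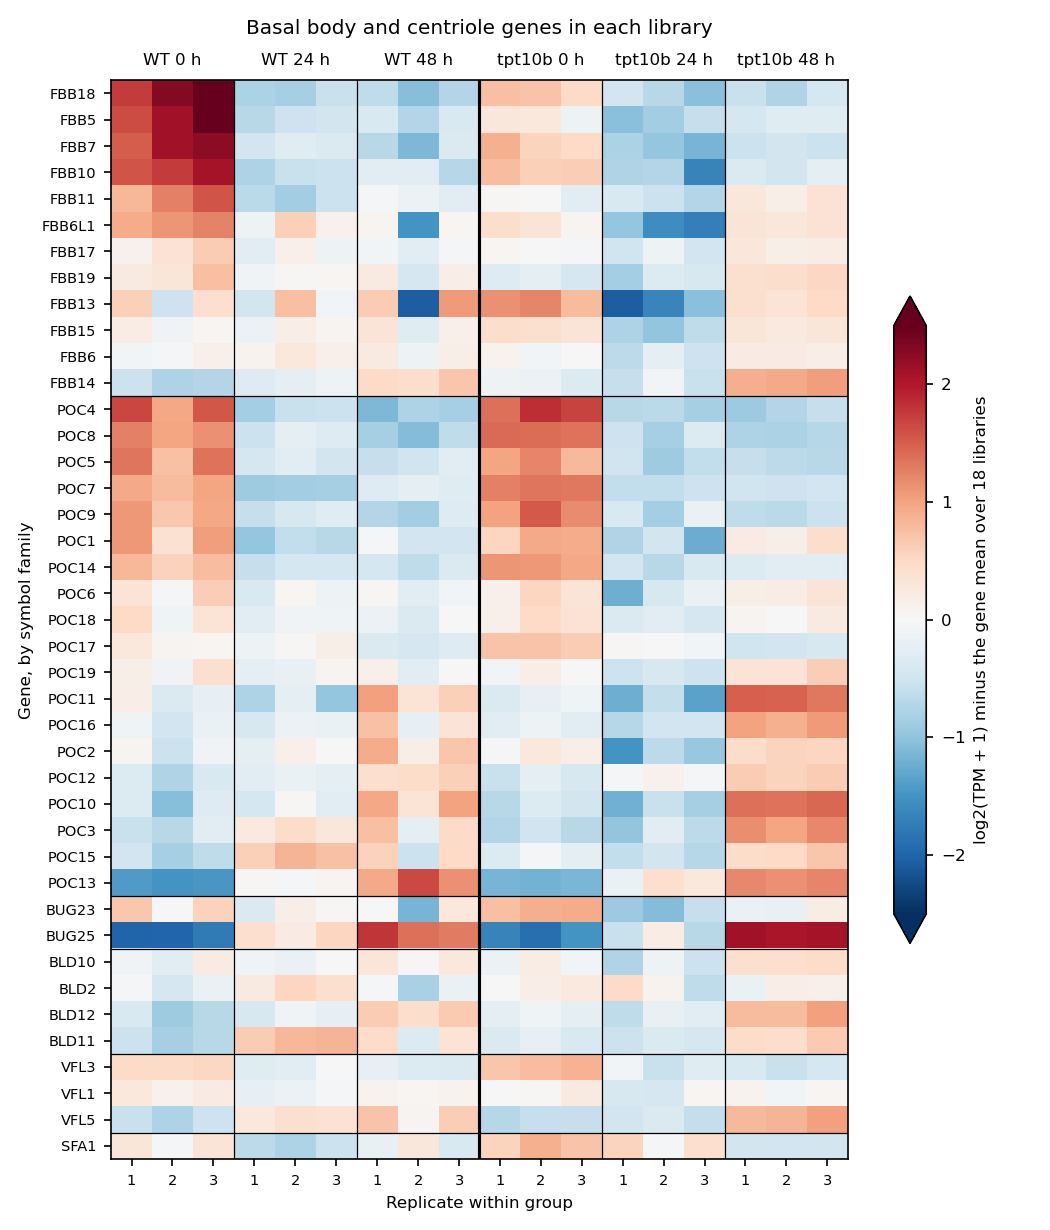
Level of each of the 41 genes (rows, grouped by family) in each of the 18 libraries (columns, 3 replicates per group), as log2(TPM + 1) minus the gene's mean over all libraries; red is above and blue below that mean. FBB5, FBB7, FBB10 and FBB18 stand highest in WT at 0 h, POC4, POC8 and POC9 are high at 0 h in both genotypes, and BUG25 and POC13 are highest at 48 h in both.

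In low light, most FBB genes were lower in tpt10b than in WT. Of the 12, 8 were lower in tpt10b (FBB5, FBB18, FBB7, FBB11, FBB10, FBB6L1, FBB19 and FBB17) and 2 were higher. None of the 18 tested POC genes or of the 10 BUG, BLD, VFL and SFA genes was lower as deposited, with 3 and 2 of them higher. After rescaling 9 FBB genes were lower (FBB6 was added), as were 3 POC genes (POC3, POC5 and POC19) and VFL1, and none of the 40 was higher. Across the 40 genes that made 8 lower and 7 higher. Among all genes tested 9.19% were called lower and 50.8% higher, so the share of these genes called lower lies above the background and the share called higher below it. After rescaling the 13 lower and 0 higher stood against 21.1% and 13.2% of all genes. The median difference was 0.08 over the 40 genes, -0.78 over the FBB genes and 0.41 over all genes.

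FBB5 (Cre12.g556300) read 33.9, 47.7 and 65.4 TPM in the 3 WT libraries and 12.8, 12.7 and 9.35 TPM in the 3 tpt10b libraries. Its mean was 4.22-fold lower in tpt10b, a log2 difference of -1.95 ± 0.20 (adjusted p = 2.36e-06; -2.47 after rescaling). FBB18 (Cre16.g688450), whose human counterpart CFAP298 takes part in the assembly of axonemal dynein arms, read 107, 157 and 191 TPM in WT and 52.9, 52.0 and 43.8 TPM in tpt10b. Every tpt10b library lay below every WT library for both genes, and FBB18 differed by -1.56 ± 0.19 (adjusted p = 1.2e-05; -2.11 after rescaling). FBB11 (Cre08.g359850) read 53.8, 73.7 and 91.2 TPM against 30.6, 30.1 and 24.8 TPM, a difference of -1.30 ± 0.16 (adjusted p = 1.4e-05). FBB7 (Cre03.g143827) read 11.5, 17.7 and 19.6 TPM against 7.14, 5.43 and 5.16 TPM (-1.30 ± 0.20, adjusted p = 6.41e-05). FBB10 (Cre07.g317850) read 25.5, 29.0 and 36.6 TPM against 14.2, 12.5 and 12.6 TPM (-1.14 ± 0.21, adjusted p = 0.000263). In these 3 genes too the groups did not overlap, and WT replicate 3 was the highest library each time. The share of all genes whose groups did not overlap was not counted, for this or any later comparison.

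The other 3 lower FBB genes moved less. FBB19 (Cre05.g235800) read 7.69, 8.12 and 11.4 TPM in WT and 4.91, 5.32 and 4.51 TPM in tpt10b (-0.75 ± 0.18, adjusted p = 0.00197). FBB6L1 (Cre13.g589450) read 118, 133 and 147 TPM against 84.4, 77.0 and 65.2 TPM (-0.81 ± 0.31, adjusted p = 0.0337). FBB17 (Cre13.g572850) read 2.53, 3.23 and 4.06 TPM against 2.41, 2.24 and 2.19 TPM (-0.37 ± 0.15, adjusted p = 0.043). The FBB6L1 call was lost without replicate 2 or 3 of WT at 0 h or replicate 2 or 3 of tpt10b at 0 h, with differences of -0.89 to -0.71, and that of FBB17 without replicate 2 or 3 of WT at 0 h or replicate 1 or 2 or 3 of tpt10b at 0 h, with differences of -0.50 to -0.24. All 8 calls of lower FBB genes held after rescaling, where every one of the 8 differences was larger. FBB6L1 and FBB6 (Cre13.g589350) have like names and 2 other genes between them in the RefSeq order of the v5.5 assembly. Should they share sequence, the authors' counting could have split reads between them, so their values are uncertain. FBB6 stood at 4.51, 4.69 and 5.29 TPM in WT and 5.16, 4.50 and 4.84 TPM in tpt10b at 0 h, with no call.

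**Figure D2:**
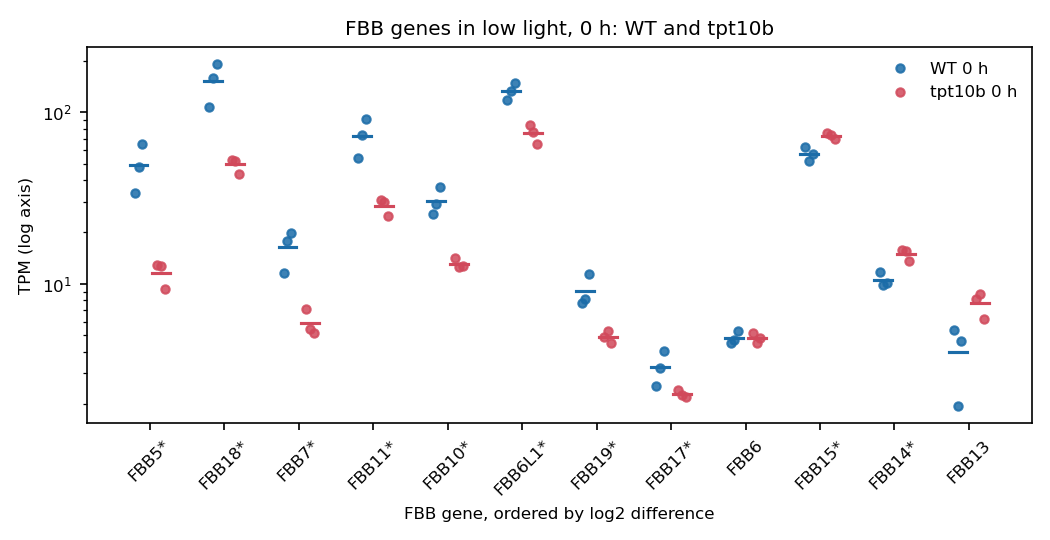
Level of the 12 FBB genes at 0 h in the 3 WT libraries (blue) and the 3 tpt10b libraries (red), in TPM on a log axis; short lines are group means, and an asterisk marks an adjusted p under 0.05. The 8 genes from FBB5 to FBB17 are lower in tpt10b, and FBB15 and FBB14 are higher before but not after rescaling.

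The 7 genes called higher in tpt10b at 0 h lay near the shift of all genes. POC17 (Cre02.g088000) read 93.8, 81.3 and 80.0 TPM in WT and 129, 127 and 121 TPM in tpt10b, a difference of 0.56 ± 0.09 (adjusted p = 0.000141) that became 0.01 after rescaling. SFA1 (Cre07.g332950) read 23.1, 17.6 and 23.1 TPM and 27.5, 35.0 and 30.6 TPM (0.53 ± 0.18, adjusted p = 0.0166; -0.01 after rescaling). BLD12 (Cre12.g516950), the SAS-6 protein that gives the cartwheel its radial symmetry, read 3.16, 1.94 and 2.37 TPM and 3.59, 4.06 and 3.69 TPM (0.47 ± 0.15; 0.05 after rescaling). FBB14 at 0.47, POC7 at 0.40, FBB15 at 0.34 and POC14 at 0.32 made up the 7, and after rescaling these 4 and SFA1 changed sign. None of the 7 was called after rescaling. Without WT 0 h replicate 2, the calls of SFA1, BLD12, FBB15 and POC14 were lost, and the comparison gave 6 lower and 3 higher. SFA1 and BLD12 were also lost without tpt10b 0 h replicate 2, and FBB15 without any of the 6 libraries but WT replicate 1. Their differences with 1 library left out were 0.40 to 0.61, 0.35 to 0.60, 0.27 to 0.41 and, for POC14, 0.25 to 0.38.

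In darkness 12 of the 40 genes were lower at both times in both genotypes, beside 20.1% of all genes tested, and 12 were higher at 48 h than at 0 h in both, beside 26.3%. The other 16 had neither pattern. After rescaling 11 and 13 genes had these patterns, beside 19.5% and 29.6% of all genes. For the second pattern the members' share lies near the background, and for the first it lies above it. In WT, 19 genes fell and 9 rose within 24 h, against 25.8% and 40.6% of all genes, and at 48 h 18 were lower and 13 higher than at 0 h, against 32.4% and 37.7%. After rescaling the numbers were 24 and 6 at 24 h (34.2% and 32% of all genes) and 20 and 13 at 48 h (36.7% and 35.5%). In tpt10b 27 fell and 3 rose at 24 h, against 57.1% and 18.1%, and at 48 h 15 were lower and 15 higher, against 44.1% and 30.1%. After rescaling the tpt10b numbers were 17 and 7 at 24 h (38.2% and 34.1%) and 13 and 19 at 48 h (36.4% and 37.6%). The comparisons within a genotype share their 0 h or 24 h libraries and are not independent of each other. Bulk RNA was measured, so fewer cells in a given state and less of a transcript per cell cannot be told apart.

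The 12 genes that were lower at both dark times in both genotypes were FBB5, FBB7, FBB10, FBB18, POC1, POC4, POC5, POC7, POC8, POC9, POC14 and VFL3. On the log2(TPM + 1) scale, which understates the change of low genes, FBB18 fell the furthest in WT. It read 107, 157 and 191 TPM at 0 h and 17.6, 17.1 and 20.9 TPM at 24 h. At 48 h it read 19.7, 14.4 and 18.5 TPM. The 24 h change of FBB18 was -2.93 ± 0.19 (adjusted p = 4.83e-10). In tpt10b, where it started lower, it went to 22.2, 19.0 and 14.7 TPM at 24 h and 20.8, 18.2 and 22.7 TPM at 48 h, a 24 h change of -1.38 ± 0.19 (adjusted p = 4.46e-06). The dark levels of the 2 genotypes overlapped at 24 h. FBB5 stood at 6.00, 6.89 and 7.27 TPM in WT and 4.46, 5.20 and 6.59 TPM in tpt10b at 24 h. Its changes in tpt10b, -0.98 at 24 h and -0.49 at 48 h, were not called after rescaling (adjusted p = 0.0876 and 0.339). The second was also lost without replicate 1 or 2 of tpt10b at 0 h or replicate 1 or 2 or 3 of tpt10b at 48 h, with differences of -0.63 to -0.42. Of the 12 genes, 10 kept all 4 calls after rescaling, all but FBB5 and POC1.

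Among the centriole proteome genes, POC8 read 945, 782 and 871 TPM in WT at 0 h and 271, 329 and 315 TPM at 24 h, a change of -1.50 ± 0.13 (adjusted p = 1.85e-08). In tpt10b it went from 1049, 1036 and 999 TPM to 275, 221 and 311 TPM (-1.95 ± 0.13, adjusted p = 8.04e-10). POC14 went from 1333, 1112 and 1288 TPM to 499, 556 and 552 TPM in WT (-1.21 ± 0.10) and from 1616, 1588 and 1463 TPM to 535, 466 and 573 TPM in tpt10b (-1.57 ± 0.10). POC8 was thus 2.84-fold and 3.83-fold lower in the 2 genotypes and POC14 2.32-fold and 2.97-fold, and both stayed among the 3 most abundant genes of the set. POC7 (Cre07.g356400), a homolog of the UNC119 lipid-binding proteins, read 155, 139 and 158, then 42.9, 43.4 and 44.4, then 63.5, 68.4 and 64.6 TPM over the 3 times in WT. Its tpt10b values were 193, 203 and 199, then 51.7, 51.7 and 55.8, then 56.0, 55.6 and 57.0 TPM. The WT values rose again between 24 h and 48 h (0.58 ± 0.08, adjusted p = 4.31e-05), and the tpt10b values differed there by 0.08 without a call.

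POC1 (Cre02.g115250), a WD40 protein that stabilises triplets and sets centriole length, went from 6.17, 3.42 and 6.01 TPM to 0.723, 1.22 and 1.08 TPM in WT at 24 h (-1.60 ± 0.22, adjusted p = 4.3e-06). In tpt10b it went from 3.88, 5.53 and 5.44 TPM to 1.02, 1.47 and 0.438 TPM (-1.61 ± 0.22, adjusted p = 3.29e-06), and its lower level at 48 h was not called there after rescaling (-0.29, adjusted p = 0.193) or without replicate 2 or 3 of tpt10b at 0 h or replicate 1 or 2 of tpt10b at 48 h (-0.67 to -0.46). POC4, POC5 and POC9 ended near 0. POC4 (Cre03.g170550) read 8.50, 4.78 and 7.68 TPM at 0 h and 0.371, 0.731 and 0.667 TPM at 48 h in WT (-2.30 ± 0.18). POC5 (Cre03.g163000), which in humans binds centrin inside the centriole, read 3.80, 2.17 and 3.90 TPM at 0 h and 0.289, 0.353 and 0.587 TPM at 48 h (-1.58 ± 0.16). POC9 (Cre14.g611250) read 2.99, 2.01 and 2.68 TPM and 0.131, 0.0295 and 0.501 TPM (-1.55 ± 0.18). VFL3 (Cre06.g279900), the CCDC61 protein needed for fibers that place the basal bodies, read 6.89, 6.86 and 7.10 TPM at 0 h and 3.56, 3.61 and 4.56 TPM at 24 h in WT (-0.70 ± 0.13, adjusted p = 0.000148). For each of these genes the 0 h and dark values of WT did not overlap.

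The 12 genes that were higher at 48 h than at 0 h in both genotypes were BUG25, POC13, POC3, POC10, POC11, POC12, POC15, POC16, BLD11, BLD12, FBB14 and VFL5. All 12 calls held in both genotypes after rescaling, with POC2 added. BUG25 (Cre01.g009650) showed the largest log2 rise of the set. In WT it read 4.77, 4.91 and 5.87 TPM at 0 h, 30.1, 25.9 and 32.7 TPM at 24 h and 79.4, 59.1 and 56.6 TPM at 48 h, 12.5-fold above the start (3.40 ± 0.19, adjusted p = 5.88e-11). In tpt10b it read 6.31, 5.27 and 7.25, then 14.8, 25.4 and 13.5, then 98.1, 95.1 and 97.9 TPM, 15.5-fold above the start (3.76 ± 0.19, adjusted p = 1.44e-11). The 3 times did not overlap in either genotype. POC13 (Cre03.g156250) rose from 153, 146 and 148 TPM to 417, 398 and 429.9 TPM and 795, 1283 and 905 TPM in WT (2.70 ± 0.15, adjusted p = 5.01e-11). Its tpt10b values were 183, 180.3 and 185, then 366, 546 and 494, then 939, 901 and 953 TPM (2.34 ± 0.15, adjusted p = 2.46e-10), so that at 48 h it was the most abundant gene of the set in both genotypes.

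POC3, POC10 and POC12, named in that list, are counterparts of transition zone proteins. POC3 (Cre03.g167550), the CEP290 protein that links the transition zone to the membrane, read 2.80, 2.45 and 3.58 TPM at 0 h and 8.39, 3.80 and 6.81 TPM at 48 h in WT (0.85 ± 0.21, adjusted p = 0.00173). In tpt10b the values were 2.38, 2.97 and 2.43 TPM and 11.5, 9.98 and 11.8 TPM (1.75 ± 0.21, adjusted p = 8.95e-07). POC10 (Cre12.g531400), the NPHP4 protein of the same zone, read 3.68, 1.85 and 3.77 and 10.7, 6.57 and 10.9 TPM in WT (1.35 ± 0.22) and 2.66, 3.72 and 3.35 and 14.5, 14.3 and 15.2 TPM in tpt10b (1.89 ± 0.22). POC12 (Cre12.g495350), a homolog of MKS1, rose by 0.98 ± 0.13 in WT and 1.01 ± 0.13 in tpt10b. POC16 (Cre14.g613400), the WDR90 protein of the inner centriole wall, was low at 0 h, at 1.00, 0.564 and 0.930 TPM in WT, and read 2.58, 0.874 and 1.76 TPM at 48 h, where WT replicate 2 overlapped the 0 h values (0.54 ± 0.18, adjusted p = 0.0113). That call was lost without replicate 2 of WT at 0 h or replicate 1 of WT at 48 h, with differences of 0.32 to 0.79. BLD12 rose by 1.24 ± 0.15 in WT and 1.06 ± 0.15 in tpt10b, and VFL5 (Cre07.g329550) by 1.08 ± 0.14 and 1.52 ± 0.14. The changes at 48 h were 1.22 ± 0.14 and 1.18 ± 0.14 for FBB14 (Cre07.g338300), 0.84 ± 0.17 and 0.83 ± 0.17 for BLD11, and 0.83 ± 0.22 and 0.75 ± 0.22 for POC15, where WT replicate 2 again overlapped the 0 h values.

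**Figure D3:**
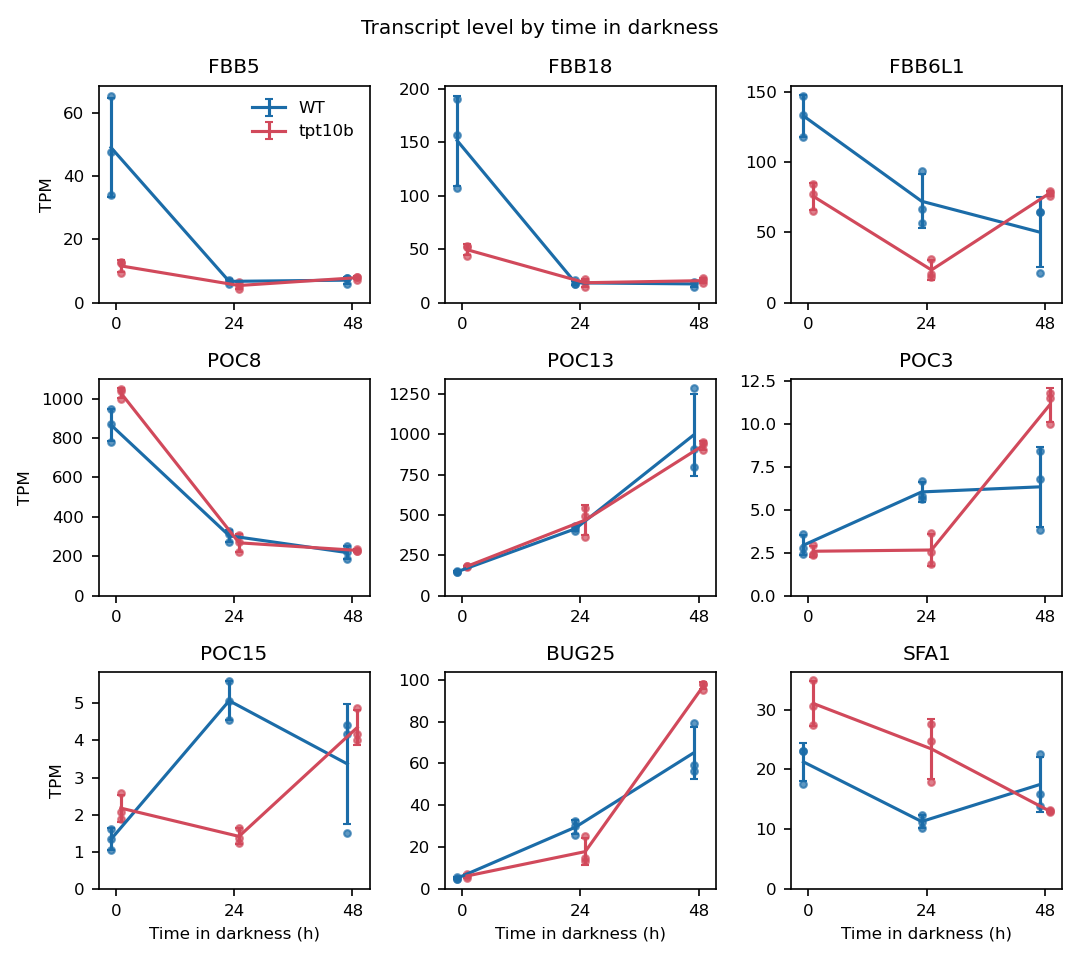
Level in TPM (vertical axes, from 0) of 9 genes against time in darkness (0 h, 24 h and 48 h) in WT (blue) and tpt10b (red); points are libraries, and lines join means with bars of 1 SD (n = 3). FBB5 and FBB18 start lower in tpt10b and meet WT in darkness, POC8 is lower and POC13 higher in darkness in both, and POC3, POC15 and BUG25 are lower in tpt10b at 24 h.

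Between 24 h and 48 h, 12 genes rose and 5 fell in WT, against 16.8% and 24.7% of all genes (13 and 3 after rescaling, against 22.8% and 19.6%). In tpt10b 29 rose and 2 (SFA1 and POC17) fell, against 46.5% and 20.2% (23 and 4 after rescaling, against 36.3% and 31.6%), with a median change of 0.82 over the 40 genes and 0.29 over all genes. In tpt10b 17 genes were lower at 24 h than at 0 h and then rose by 48 h, beside 29.1% of all genes, and in WT 4 were (POC7, POC11, FBB11 and SFA1), beside 4.36%. After rescaling these numbers were 7 in tpt10b, beside 17.6%, and 5 in WT, beside 7.42%, so that the 7 lie at the background. The difference between the genotypes in these counts was not tested. FBB6L1 was one of the 7, at 84.4, 77.0 and 65.2, then 31.1, 20.3 and 18.1, then 78.0, 75.8 and 79.5 TPM in tpt10b. Its WT values were 118, 133 and 147, then 56.5, 93.3 and 66.3, then 64.6, 21.2 and 64.4 TPM, the last with replicate 2 far below the others. POC11 (Cre03.g195450) reached 6.63, 6.55 and 5.75 TPM in tpt10b at 48 h from 0.177, 0.797 and 0.0819 TPM at 24 h (2.47 ± 0.22, adjusted p = 6.63e-08).

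After 24 h of darkness 14 of the 40 genes were lower in tpt10b than in WT and 2 were higher, a 35% and 5% share beside 34.8% and 5.76% of all genes tested, shares that lie near the background. After rescaling 9 were lower and 5 higher, against 21.1% and 19.5%. The median difference was -0.34 over the 40 genes and -0.23 over all genes. POC15 (Cre13.g607650) read 4.54, 5.60 and 5.06 TPM in WT and 1.37, 1.65 and 1.23 TPM in tpt10b, 3.57-fold lower (-1.33 ± 0.22, adjusted p = 0.000236; -1.09 after rescaling). BLD11 (Cre16.g672200) read 4.16, 4.90 and 5.03 TPM against 1.28, 1.60 and 1.47 TPM (-1.22 ± 0.17, adjusted p = 7.44e-05; -0.98 after rescaling). No library of the 2 groups overlapped in either gene. POC3 read 5.63, 6.68 and 5.80 TPM against 1.83, 3.63 and 2.53 TPM (-0.97 ± 0.21, adjusted p = 0.00203), and VFL5 1.68, 1.93 and 1.84 TPM against 0.589, 0.737 and 0.478 TPM (-0.82 ± 0.14, adjusted p = 0.000397). POC2 (Cre10.g436000) read 2.58, 3.54 and 3.18 TPM against 0.475, 1.67 and 1.15 TPM (-1.002 ± 0.22, adjusted p = 0.00189).

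Those 5 genes have the longest coding sequences of the 40 tested, 7557 bp for POC3 to 15222 bp for BLD11. Of the 474 genes over 7500 bp, 73.4% were lower in tpt10b at 24 h and 0% higher, with a median of -0.57, while the 10504 genes under 2500 bp had a median of -0.19 and 30.9% lower. The 5 had a median of -1.002. With the trend of each library along coding length removed, a setting chosen after the data were seen, all 5 stayed called, from -0.79 for BLD11 and -0.93 for POC15 to -0.53 for VFL5. FBB7 and POC10 then lost their calls (adjusted p = 0.0558 and 0.0998). Genes over 7500 bp also had a median change of 0.64 in WT between 0 h and 24 h, against 0.18 under 2500 bp. The part of length in the differences of these 5 genes was not tested further.

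**Figure D4:**
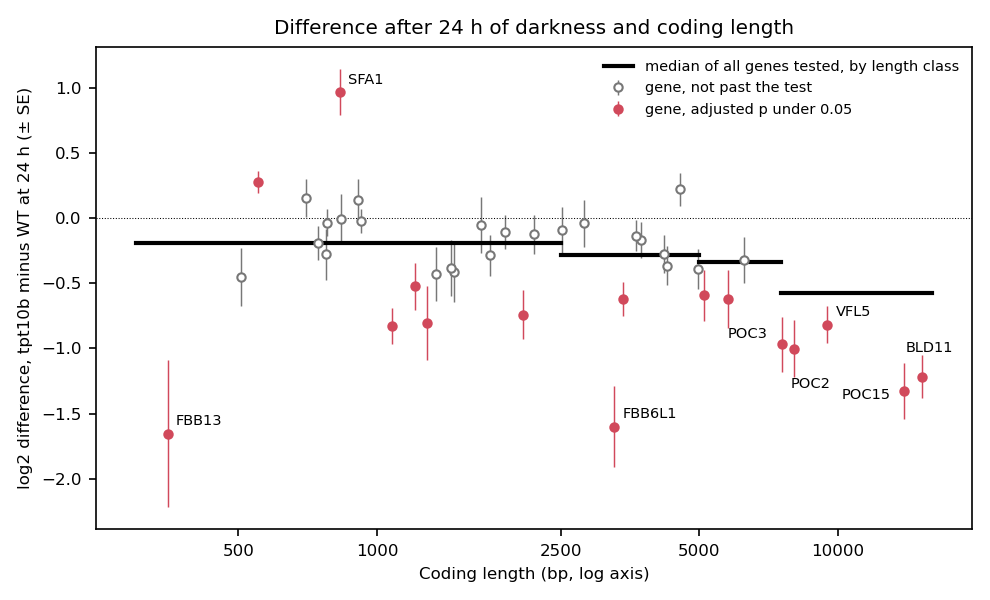
Difference between tpt10b and WT at 24 h (log2(TPM + 1) scale, ± SE) against coding length in bp (log axis) for the 40 tested genes; filled red points passed an adjusted p of 0.05, open points did not, and black lines are medians of all genes tested in each of 4 length classes. The 5 longest genes, POC3, POC2, VFL5, POC15 and BLD11, lie below 0 and below the median of their class, which is the lowest of the 4.

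BUG25, BLD11, POC3, POC15 and VFL5 had risen in WT by 24 h and were lower in tpt10b at that time. Of all genes tested 40.6% rose in WT by 24 h and 34.8% were lower in tpt10b at 24 h. All of the 5 but BUG25 are over 7500 bp. In that length class 65.4% rose in WT by 24 h and 73.4% were lower in tpt10b at 24 h. The share of all genes with both calls was not counted. Both comparisons use the WT libraries at 24 h, so the 2 calls are not independent. BUG25 read 30.1, 25.9 and 32.7 TPM in WT and 14.8, 25.4 and 13.5 TPM in tpt10b (-0.74 ± 0.19, adjusted p = 0.00567), and was not called after rescaling (-0.41, adjusted p = 0.102). Shorter genes were lower as well. FBB6L1 read 56.5, 93.3 and 66.3 TPM against 31.1, 20.3 and 18.1 TPM (-1.60 ± 0.31, adjusted p = 0.000882; -1.26 after rescaling), and FBB6 5.18, 5.94 and 5.34 TPM against 2.70, 3.97 and 3.05 TPM (-0.62 ± 0.13, adjusted p = 0.0015). FBB15 (Cre06.g299350) read 49.4, 62.1 and 57.8 TPM against 32.0, 27.2 and 34.9 TPM (-0.83 ± 0.14, adjusted p = 0.000352; -0.49 after rescaling). FBB13 (Cre07.g339550), at 351 bp the shortest gene of the set, had 69, 178 and 73 reads in WT and 0, 10 and 43 reads in tpt10b (-1.66 ± 0.56, adjusted p = 0.0271). It also had 163, 0 and 219 reads in WT at 48 h, so its values varied between replicates of a group, and its call was lost without replicate 2 or 3 of WT at 24 h or replicate 1 or 2 of tpt10b at 24 h, with differences of -1.93 to -1.31.

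BUG23 (Cre10.g461350) at -0.81, POC10 at -0.62, FBB7 at -0.59 and FBB19 at -0.52 completed the 14 and were not called after rescaling. These 4 calls were also lost without WT 24 h replicate 2 or 3, with differences of -0.96 to -0.69 for BUG23, -0.77 to -0.45 for POC10, -0.68 to -0.49 for FBB7 and -0.62 to -0.36 for FBB19, and without tpt10b 24 h replicate 1 (BUG23, POC10 and FBB19), 2 (BUG23) or 3 (POC10 and FBB7). SFA1 was higher in tpt10b at this time. It read 11.3, 10.3 and 12.3 TPM in WT and 27.7, 17.8 and 24.8 TPM in tpt10b, 2.07-fold higher with no overlap (0.97 ± 0.18, adjusted p = 0.00054; 1.30 after rescaling). POC7 was higher by 0.28 ± 0.08 (0.62 after rescaling), a call lost without replicate 3 of tpt10b at 24 h, with differences of 0.24 to 0.30. After rescaling POC12, POC14 and POC17 were called higher too, by 0.51, 0.31 and 0.32.

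After 48 h of darkness 3 genes were higher in tpt10b and 0 lower, beside 5.2% and 1.39% of all genes. An unadjusted p under 0.05 was reached by 15 of the 40, beside 3917 of all 14731 genes tested. POC3 read 8.39, 3.80 and 6.81 TPM in WT and 11.5, 9.98 and 11.8 TPM in tpt10b (0.77 ± 0.21, adjusted p = 0.0392). POC11 read 4.52, 2.45 and 3.10 TPM against 6.63, 6.55 and 5.75 TPM (0.77 ± 0.22, adjusted p = 0.0445), and POC16 2.58, 0.874 and 1.76 TPM against 3.37, 2.99 and 3.52 TPM (0.70 ± 0.18, adjusted p = 0.0277). All tpt10b libraries lay above all WT libraries in the 3 genes, and WT replicate 2 was the lowest of its group each time. Without that library 0 genes were called, with differences as small as 0.49 for POC3, 0.62 for POC11 and 0.45 for POC16. Without WT 48 h replicate 1, 10 were called, without WT 48 h replicate 3, 1, and without any single tpt10b library 0. After rescaling POC16 was called (0.60, adjusted p = 0.0253), beside 3.27% of all genes higher and 2.46% lower, and POC3 and POC11 were not (adjusted p = 0.0512 and 0.0664).

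The change in darkness was compared between the genotypes by an interaction term, the change in tpt10b minus that in WT. At 24 h it was called positive for 5 genes, all FBB (FBB5, FBB7, FBB10, FBB11 and FBB18), and negative for 15, beside 6.25% and 57.9% of all genes. At 48 h it was positive for 12 genes and negative for 3, beside 9.02% and 26.4%. After rescaling the numbers were 13 and 4 at 24 h (24.7% and 19.7% of all genes) and 15 and 0 at 48 h (17.1% and 8.74%). The FBB5 term was 1.67 ± 0.28 at 24 h (adjusted p = 0.000132) and 2.09 ± 0.28 at 48 h (adjusted p = 0.000131), and that of FBB18 1.55 ± 0.27 and 1.79 ± 0.27. Both terms hold the 0 h difference, so they are not evidence apart from it.

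POC1, POC4, POC5, POC6, POC8, POC9, POC12, POC13, POC19, BLD2, BLD10, VFL1 and VFL3, 13 of the 40, were called as deposited in none of the 3 comparisons of tpt10b with WT at a single time, and 9 of them in none of these after rescaling either. With both interaction terms counted too, 11 were called in none as deposited, since POC8 was called at 24 h and POC19 at 48 h, and 6 of those (BLD2, BLD10, POC4, POC6, POC9 and VFL3) in none after rescaling. The share of all genes without any of these calls was not counted, so whether these numbers are unusual cannot be told. BLD2 (Cre03.g172650), the ε-tubulin needed for triplet microtubules, read 5.38, 3.94 and 4.88 TPM in WT and 5.53, 6.35 and 6.73 TPM in tpt10b at 0 h. It rose in WT at 24 h by 0.59 ± 0.23, a call lost after rescaling (adjusted p = 0.126) and without replicate 2 or 3 of WT at 0 h or replicate 2 or 3 of WT at 24 h, with differences of 0.49 to 0.68. BLD10 read 1.80, 1.30 and 1.70 TPM in WT and 1.99, 2.03 and 2.09 TPM in tpt10b at 48 h, and rose in tpt10b from 24 h by 0.90 ± 0.15 (adjusted p = 7.12e-05). VFL1 lay between 0.419 and 1.30 TPM in all 18 libraries. It was lower at 24 h than at 0 h in WT (-0.32 ± 0.12, adjusted p = 0.0255) and in tpt10b (-0.35 ± 0.12, adjusted p = 0.0146), and rose by 48 h in tpt10b (0.29 ± 0.12, adjusted p = 0.0429). Both tpt10b calls were lost after rescaling (-0.070 and 0.14). Each of the 3 calls was also lost without 3 or 4 single libraries (the WT fall without replicate 1 or 3 of WT at 0 h or replicate 1 or 2 of WT at 24 h, the tpt10b fall without replicate 3 of tpt10b at 0 h or replicate 1 or 2 of tpt10b at 24 h, the rise without replicate 1 or 2 of tpt10b at 24 h or replicate 1 or 3 of tpt10b at 48 h), with differences of -0.37 to -0.28, -0.50 to -0.26 and 0.21 to 0.44. POC6 (Cre06.g283550) averaged 22.6, 16.0 and 16.5 TPM over the 3 times in WT and 22.7, 11.9 and 20.9 TPM in tpt10b. POC19 (Cre12.g492850) averaged 3.83, 2.95 and 3.15 TPM in WT and 3.38, 2.06 and 4.78 TPM in tpt10b. As deposited neither was called in darkness in WT, and in tpt10b both fell by 24 h (-0.93 and -0.51) and rose by 48 h (0.82 and 0.91). After rescaling both were instead lower in WT at 24 h (-0.72 and -0.50) and at 48 h (-0.53 and -0.31), and of these 4 tpt10b calls that of POC19 between 24 h and 48 h held.

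Other genes of the flagellum gave more one-sided counts. Of 31 genes of intraflagellar transport and the BBSome, which carry cargo along the axoneme, 25 were lower and 0 higher in tpt10b at 0 h (31 and 0 after rescaling), and in WT 28 fell and 0 rose by 24 h, with a median of -2.72. Of 336 tested flagellar associated protein genes, 239 were lower and 33 higher at 0 h (275 and 6 after rescaling), and 293 fell and 19 rose in WT by 24 h (median -2.40). Of 60 genes for axonemal dyneins, radial spokes and the central pair, 43 were lower and 2 higher at 0 h, and 55 fell and 3 rose by 24 h (median -2.58). The 40 basal body and centriole genes had a median of -0.38 in that comparison, the 12 FBB genes -0.68 and all genes 0.21. The 4 α- and β-tubulin genes fell in WT by 24 h, with a median of -3.38. No test of the difference between these lists was made.

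Of 12 further genes of the basal body and transition zone found by symbol, 1 was higher and 2 lower in tpt10b at 0 h (0 and 5 after rescaling). In WT 1 rose and 2 fell by 24 h (1 and 6 after rescaling), and in tpt10b 11 rose and 0 fell between 24 h and 48 h (9 and 0 after rescaling), with a median of 0.92. The shares of all genes for these 3 comparisons are those given above. At 48 h against 0 h, the transition zone genes MKS6, B9D1 and TMEM67 rose in WT by 0.91, 0.80 and 0.62, while TMEM216 and TMEM231 were not called there (0.44 and 0.11, adjusted p = 0.152 and 0.659). All 5 rose in tpt10b, by 0.69 to 1.60. The 2 of the 12 genes called lower there as deposited, DIP13 and CEP131, went the other way. DIP13 changed by -1.92 in WT (adjusted p = 1.72e-07) and -0.80 in tpt10b, and CEP131 by -1.09 in both. DIP13 averaged 161 TPM at 0 h and 42.4 TPM at 48 h in WT. It was also lower in tpt10b than in WT at 0 h (-1.01, adjusted p = 0.000566). UNI3 (Cre03.g187350), the δ-tubulin of triplet microtubules, averaged 8.95 ± 0.745, 18.2 ± 1.79 and 33.8 ± 4.69 TPM (± SD) at 0 h, 24 h and 48 h in WT. The tpt10b averages were 15.4 ± 1.15, 16.7 ± 4.69 and 31.0 ± 2.24 TPM (± SD). Of 32 tested cell cycle genes, 9 were higher and 3 lower in tpt10b at 0 h as deposited, but 3 higher and 14 lower after rescaling. In WT 19 fell and 4 rose by 24 h (24 and 4 after rescaling), with a median of -0.70. Of 42 genes named for conservation with motile or sensory cilia, 13 were higher and 9 lower in tpt10b at 0 h as deposited, but 2 higher and 17 lower after rescaling. In WT 24 fell and 8 rose by 24 h (27 and 8 after rescaling), with a median of -0.59.

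**Figure D5:**
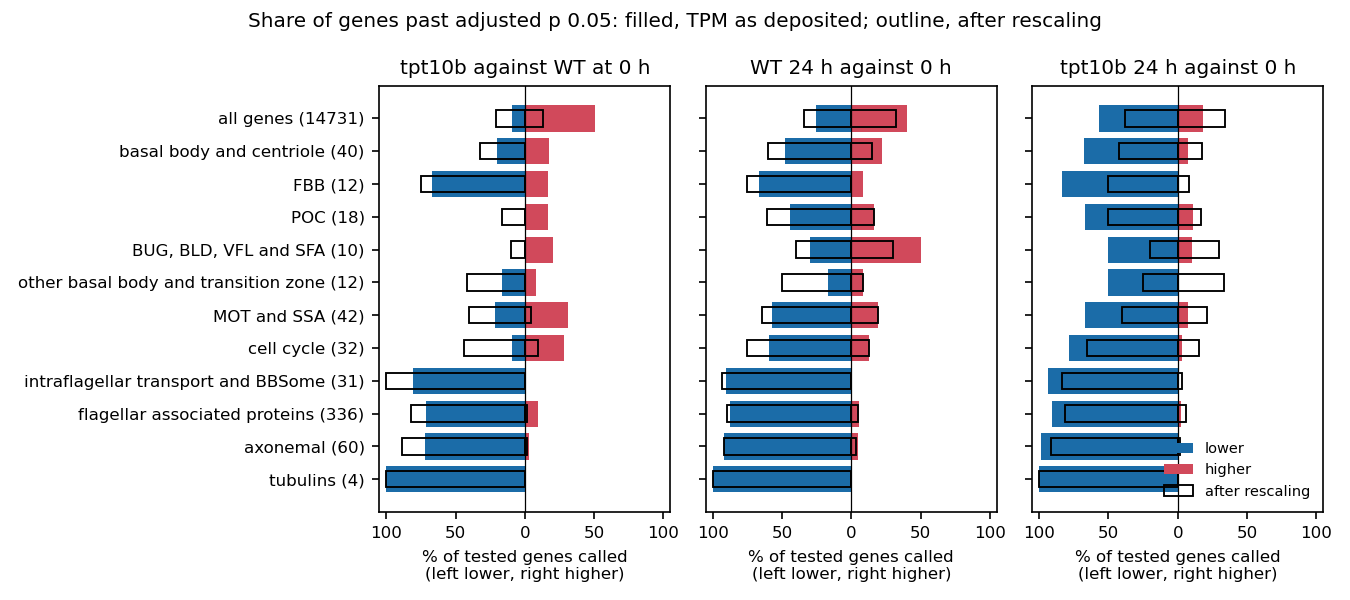
Share of tested genes (horizontal axes, %) called lower (blue, to the left) or higher (red, to the right) in 3 comparisons, for all genes, the basal body and centriole genes and their families, and other lists, with the number tested in brackets; black outlines give the shares after rescaling. Lists of the axoneme and of transport lie almost wholly to the left in all 3 panels, while the basal body and centriole genes have both directions as deposited.

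Gametes are the other cell state that such cultures could hold. Of 8 gamete markers 6 were found, all but SAD1 and MID. FUS1, the adhesion gene of plus gametes, was listed at 0 in all 18 libraries. As a marker of plus gametes it cannot show whether minus gametes were present. GEX1 averaged at most 0.0818 TPM in any group. GSM1 averaged 0.0148 to 0.0597 TPM and SAG1 0.186 to 1.46 TPM over the groups. GSP1, the homeodomain protein of plus gametes, was the most abundant marker at 0 h and averaged 6.70 TPM before darkness and 1.31 TPM after 48 h in WT, and 9.86 and 1.53 TPM in tpt10b. HAP2, which fuses gametes, went the other way and averaged 1.19 TPM before darkness and 4.83 TPM after 48 h in WT, and 1.09 and 9.10 TPM in tpt10b. The 6 markers summed to 3.25 to 9.71 TPM in WT libraries and 1.72 to 12.7 TPM in tpt10b libraries, with 1.72 to 2.85 TPM in tpt10b at 24 h. Their part in the differences above was not tested.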

How the data were processed

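The authors deposited TPM per gene for 17693 genes in 18 libraries, and per the submitters' processing notes HISAT2 2.0.5 and StringTie 1.3.3b were used, with no role stated; the counting tool and strandedness are not given in the sources used here. Per the labels' protocols, total RNA was treated with DNase, primed with random hexamers and sequenced in pairs. TPM times length gave whole reads within 0.01 for 100% of values, and 94.4% of lengths were multiples of 3, so they are called coding lengths. Groups came from the sample titles. Titles number replicates 1 to 3, while the descriptions of tpt10b at 48 h continue from there, and whether this marks a batch cannot be told apart from the group.

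Genes with at least 1 TPM in at least 3 libraries (14731) were fitted on log2(TPM + 1) with limma 3.58.1 (R 4.3.3): 1 coefficient per group, moderated variances with a mean trend, and 11 contrasts. Each contrast had its own Benjamini-Hochberg adjustment over all genes, called at 0.05. The fit was tested on simulated data. Genes called in a genotype comparison or interaction are described with values, the others by range and count; BLD2, BLD10, VFL1, UNI3 and other genes given beyond that rule were chosen after their values were seen. Alternatives were pseudocounts of 0.1 and 5, no filter, a mean of at least 5 TPM, median-of-ratios rescaling, a replicate block, limma-voom on the recovered reads, each library left out, and, added after the data were seen, removal of each library's trend with coding length. The genes and the comparison lists were chosen with earlier results of these data known. Tables and plots used Python 3.11.15 with pandas 2.3.3 and matplotlib 3.10.9. All 41 locus tags matched the RefSeq gene table of the v5.5 assembly, which was used for the order of genes alone.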

Additional observations from a re-analysis of the deposited data

Results flagged for a closer look

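The change from 0 h differed between the genotypes, by the interaction term of the same limma fit, for 20 of the 40 genes at 24 h and 15 at 48 h. Of all 14731 genes tested, 9456 were called at 24 h and 5212 at 48 h. Values are the change in tpt10b minus the change in WT, and rescaling moved the median of all genes by 0.70 at 24 h and 0.32 at 48 h.

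At 24 h the difference was positive for FBB5 (1.67), FBB18 (1.55), FBB11 (1.44), FBB10 (0.71) and FBB7 (0.71), as deposited a smaller fall in tpt10b. These 5 terms held after rescaling. The tpt10b changes of FBB5 and FBB11 were then not called, with 0.13 for FBB11. All 5 terms hold the 0 h difference between the genotypes, so they are not evidence apart from it. The calls of FBB10 and FBB7 were lost without several single libraries, with values of 0.56 to 1.02 and 0.57 to 0.93. It was negative for POC15 (-1.77), BLD11 (-1.59), POC2 (-1.33) and VFL5 (-0.81), which also held after rescaling. It was negative as deposited, and not called so after rescaling, for FBB13 (-2.53), BUG23 (-1.26), FBB15 (-1.17), BUG25 (-0.97), POC3 (-0.84), FBB14 (-0.64), FBB6 (-0.62), BLD12 (-0.59), POC17 (-0.58), POC8 (-0.44) and POC14 (-0.36); the last 2 were then called positive. Single libraries left out also ended the calls of POC3 (-1.02 to -0.67), BLD12 (-0.73 to -0.46), POC8 (-0.55 to -0.31) and POC14 (-0.43 to -0.28).

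At 48 h the difference was positive for 8 FBB genes: FBB5 (2.09), FBB18 (1.79), FBB11 (1.72), FBB6L1 (1.59), FBB7 (1.52), FBB19 (1.21), FBB10 (1.20) and FBB17 (0.69). It was also positive for POC3 (0.90), POC11 (0.86), POC16 (0.67) and POC19 (0.61). All 12 held after rescaling. The 8 FBB genes are the ones called lower in tpt10b at 0 h. Their terms hold that difference, so they are not evidence apart from it. Leaving out single libraries ended the calls of FBB17 (0.56 to 0.82), POC3 (0.62 to 1.11), POC11 (0.70 to 1.04), POC16 (0.42 to 0.89) and POC19 (0.48 to 0.73). It was negative for SFA1 (-0.90), POC17 (-0.65) and POC7 (-0.62), which were not called after rescaling.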

How the results depend on the processing

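Counts of called genes are out of 40 unless stated. The filter at a mean of 5 TPM kept 19 of them, so fewer could be called: 8 at 24 h between genotypes, 15 and 15 in WT at 24 h and 48 h against 0 h, 10 between those times, 14, 14 and 14 for the same in tpt10b, and 11 for the interaction at 24 h. The 3 calls between genotypes at 48 h became 0 with a pseudocount of 0.1, 8 with 5, 1 with that filter, after rescaling, with the replicate block and with limma-voom, and 0 without the length trend; the cause was not tested. Leaving out 1 library gave 9 to 16, 11 to 19 and 0 to 10 calls between genotypes at the 3 times. Within WT it gave 21 to 28 and 28 to 31 against 0 h and 13 to 16 between dark times, in tpt10b 27 to 29, 27 to 28 and 27 to 30, and for the interactions 14 to 21 and 10 to 16.

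Rescaling changed the sign of 15 called single-gene differences, by shifting all genes. At 0 h between genotypes these were FBB15 (-0.20), SFA1 (-0.007), FBB14 (-0.042), POC7 (-0.16) and POC14 (-0.23). At 24 h in tpt10b they were SFA1 (0.20), FBB11 (0.13), FBB17 (0.040) and FBB6 (0.030). In the interaction at 24 h they were POC17 (0.31), POC8 (0.46, adjusted p = 0.0327), FBB14 (0.20), BLD12 (0.10), POC14 (0.55, adjusted p = 0.00587) and FBB6 (0.11). No other setting changed a sign of a called difference. Replicate numbers did not pair the samples. Deviations from the group mean were correlated between groups, and 6 of 45 same-number correlations were over 0.1. For 0 of 18 libraries was the mean correlation with other groups highest at the library's own replicate number. With the replicate block 8 single-gene calls were lost, and 16 genes were called between genotypes at 24 h.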
